A study of Mus musculus with 16 samples.

Results

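The ERK feedback inhibitor genes were described in the brains of aged mice treated with adropin(34-76), a peptide fragment of the secreted protein adropin, or with diluent. They are the MAP kinase phosphatase genes Dusp1, Dusp4, Dusp5, Dusp6 and Dusp14 and the Sprouty family genes Spry2, Spry4, Spred1 and Spred2. These 9 of the 40481 genes in the deposited count table were chosen by symbol, and all 9 were present and passed the filter on low counts. RNA was measured by RNA-Seq after poly-A selection in 16 brains, 8 from mice treated with adropin and 8 from saline controls. All were male C57BL mice, given as C57BL/6J in the study's text, that were 18 months old at purchase, with no genetic modification given. The treated mice received 90 nmol/kg of the peptide each day by intraperitoneal injection, in saline with bovine serum albumin, and the controls received the diluent alone. Injections ran for 2 weeks before behavioral tests and continued during them, so both groups had been handled, injected and tested. The mice were fasted for 6 h at the end, and brain tissue was snap frozen. The labels give the tissue as brain and name no region.

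ERK, a MAP kinase, carries signals from growth factor receptors and from synaptic activity to the nucleus through RAS, RAF and MEK. Active ERK and the transcription factors downstream of it raise the expression of genes whose proteins switch the pathway off. Dual specificity phosphatases remove the activating phosphates from MAP kinases, while Sprouty and SPRED proteins act upstream, between the receptor and RAF. In neurons several of these genes behave as immediate early genes, which are transcribed within minutes of activity without new protein synthesis.

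Adropin-treated brains held less mRNA of Dusp1, Dusp5 and Dusp6 than saline-treated brains at an unadjusted edgeR p below 0.05. By the fitted fold change, Dusp1 fell by 34.0%, Dusp5 fell by 40.4% and Dusp6 fell by 18.2%. The other members, including every Sprouty and SPRED gene, did not pass that threshold. Thus 3 of 9 members were reduced, beside 2.13% of all 14949 genes tested, and none was increased, beside 1.86%. With the fold change limit of 1.5 added, Dusp1 and Dusp5 remained, beside 0.308% of genes reduced past both limits. The median log2 fold change was -0.12 over the 9 members and -0.0019 over all genes. After Benjamini-Hochberg adjustment over all genes in edgeR, none of the 14949 was past 0.05. The smallest adjusted p was 0.387, and 596 genes had an unadjusted p below 0.05. The adjusted p of Dusp1, Dusp5 and Dusp6 was 0.874 for each. The fold change plot by gene shows these 9 estimates with their intervals.

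**Figure D1:**
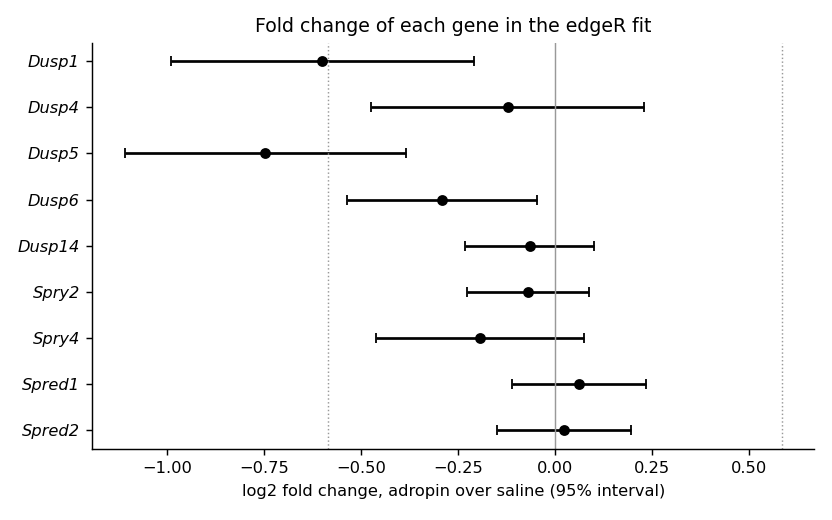
Log2 fold change of each gene, adropin over saline, from edgeR (points) with its 95% interval (bars) for 8 mice per group. Dotted lines mark a fold change of 1.5 in either direction, and the intervals of Dusp1, Dusp5 and Dusp6 lie wholly below 0.

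Total counts per mouse ranged from 35026503 to 70314050, and the lowest count of any member in any mouse was 275, of Dusp4. Each mouse is 1 sample, named by the pair of numbers in its label, whose meaning the sources do not give. Adropin mouse 1_3 had the largest library and the highest value of its group in 5 of 9 members. Saline mouse 5_4 and adropin mouse 4_3 had the smallest libraries of their groups. They held the lowest values in 7 and 6 of the members. Saline mouse 8_3 stood apart in tissue markers. Its summed choroid plexus markers reached 2470 CPM, beside 330 CPM in the next mouse, and its summed cerebellar markers reached 466 CPM, beside 38.4 CPM. In whole tissue, fewer cells of a type and less RNA per cell cannot be told apart.

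The promoters of Dusp1 and Dusp5 are shown because these genes had the largest fold changes and are known to respond to stimulation. Each is the 250 bases before the RefSeq start site, 5′ to 3′ on the strand of the gene, in GRCm38.p6. Capitals mark matches to the searched motifs.

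Dusp1 (chr17:26508473-26508722, minus strand): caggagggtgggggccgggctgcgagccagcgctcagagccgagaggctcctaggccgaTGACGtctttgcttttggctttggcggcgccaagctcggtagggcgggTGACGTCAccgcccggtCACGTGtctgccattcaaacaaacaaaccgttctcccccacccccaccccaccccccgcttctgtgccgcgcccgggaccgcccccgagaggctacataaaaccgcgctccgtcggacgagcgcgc
Dusp5 (chr19:53528895-53529144, plus strand): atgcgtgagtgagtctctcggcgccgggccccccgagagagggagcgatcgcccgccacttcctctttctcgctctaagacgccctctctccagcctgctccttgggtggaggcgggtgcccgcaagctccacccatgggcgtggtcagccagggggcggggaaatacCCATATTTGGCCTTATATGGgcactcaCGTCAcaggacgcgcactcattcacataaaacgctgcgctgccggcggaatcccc

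In Dusp1 the capitals mark, in order, the core of a cyclic AMP response element (TGACG), the full element (TGACGTCA) and an E-box (CACGTG). They begin at positions -191, -143 and -126 from the start. In Dusp5 they mark a tandem pair of serum response elements of the CArG type, which begin at positions -82 and -72, and the reverse complement of the TGACG core (CGTCA) at position -55. Serum response elements bind SRF, a factor that works with ERK-regulated partners, and cyclic AMP response elements bind CREB. Both strands were searched from 250 bases before to 50 bases after each start, and the core is also counted within the full element. Of 27025 such promoters, 1.88% held the full cyclic AMP response element, 21.0% the core, 7.24% the E-box and 1.57% a serum response element. Promoters of 7 members were in the RefSeq table. Spred2 held the core, Dusp14 and Spry2 held an ETS motif (CCGGAA, in 15.2% of promoters), and Dusp6 and Spred1 held none of the motifs searched. A match is a description of the sequence and no measure of binding.

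Dusp5 encodes a nuclear phosphatase that acts on ERK alone and also anchors it in the nucleus. Its gene is on chromosome 19 (GRCm38, 53529109 to 53542431, plus strand). Dusp5 mRNA ran from 11.6 to 16.4 CPM with a median of 13.3 in adropin-treated mice, and from 13.6 to 40.8 CPM with a median of 20.8 in saline-treated mice. Values are CPM, counts scaled to the library size with TMM factors. All 8 treated mice were below the saline median, and the groups overlapped only through saline mice 5_4 (13.6 CPM) and 6_1 (16.1 CPM). Group means were 13.5 ± 1.63 and 22.6 ± 8.53 CPM (SD, n = 8 each). The log2 fold change was -0.75 (SE 0.17, 95% interval -1.11 to -0.38) and ranked the third of all genes by p, with an unadjusted edgeR p of 0.000389 and p = 0.00124 in a two-sided exact permutation test over all divisions of the mice. Treated mice were also closer to each other, with a coefficient of variation of 12.1% beside 37.8% in the controls, or 23.3% in the controls without mouse 8_3. That difference in spread was not tested.

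The highest Dusp5 value, 40.8 CPM, came from saline mouse 8_3, the mouse with the high choroid plexus markers. Without it the log2 fold change was -0.57 (exact permutation p = 0.00187), so the reduction remained while the fold change fell short of 1.5. Of the 7 choroid plexus markers listed, 5 could be tested. All 5 were lower in treated mice at an unadjusted edgeR p below 0.05, beside 2.13% of all genes reduced. The sum of the 7 ran from 11.9 to 74.5 CPM in treated mice and from 13.5 to 2470 CPM in controls. Its medians were 18.9 and 21.3 CPM, and no marker was at 0 in every mouse. The next 2 saline mice in Dusp5, 6_2 and 7_1, held 25.9 and 24.6 CPM. Exons of Dusp5 share 547 bases with AC137853.2, an antisense gene that was not analysed here. The sources do not state whether counting used strand, so reads of the pair cannot be told apart.

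Dusp1 encodes MKP-1, a nuclear phosphatase of p38, JNK and ERK whose gene is itself an immediate early gene and a glucocorticoid target. It lies on chromosome 17 (26505590 to 26562128, minus strand). Dusp1 mRNA ran from 25.2 to 57.6 CPM with a median of 35.5 in treated mice and from 30.6 to 77.8 CPM with a median of 61.9 in controls. Again all 8 treated mice were below the saline median. Saline mice 5_4 (30.6 CPM) and 6_1 (44.0 CPM) lay within the treated range, and the others were at or above the highest treated mouse, 1_3. Means were 38.4 ± 11.7 and 58.2 ± 14.6 CPM (SD, n = 8 each). The log2 fold change was -0.60 (SE 0.19, 95% interval -0.99 to -0.21), with an unadjusted edgeR p of 0.00468 and a two-sided exact permutation p of 0.0160. The log2 fold change lay just beyond the limit of 1.5-fold. It was -0.53 without saline mouse 8_3 (exact permutation p = 0.0309). Leaving out any 1 mouse moved it between -0.70 and -0.52, and that p was the highest. Dusp1 shares 11 exon bases with Ergic1 on the other strand, whose log2 fold change was 0.07 (exact permutation p = 0.156).

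Dusp6 encodes MKP-3, a cytoplasmic phosphatase selective for ERK, and is widely used as a readout of ERK activity. Its gene lies on chromosome 10 (99263231 to 99267489, plus strand). Dusp6 mRNA ran from 36.2 to 71.0 CPM with a median of 50.1 in treated mice and from 45.8 to 72.7 CPM with a median of 63.8 in controls. The ranges overlapped widely, but 7 of 8 treated mice were below the saline median. Apart from mouse 1_3 the treated mice reached at most 55.2 CPM, and apart from mouse 5_4 the controls began at 56.1 CPM. Means were 50.4 ± 10.8 and 61.6 ± 7.91 CPM (SD, n = 8 each), and the log2 fold change was -0.29 (SE 0.12, 95% interval -0.54 to -0.04). The unadjusted edgeR p was 0.0230 and the two-sided exact permutation p was 0.0314. Leaving out any 1 mouse moved the log2 fold change between -0.37 and -0.23, but the reduction lay close to the p threshold. It missed an unadjusted edgeR p of 0.05 without adropin mouse 3_3 (-0.23, exact permutation p = 0.0612) and without adropin mouse 4_3 (-0.23, exact permutation p = 0.0625). By the exact test, p was at or above 0.05 when any of 7 single mice was left out, with a highest value of 0.0625.

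**Figure D2:**
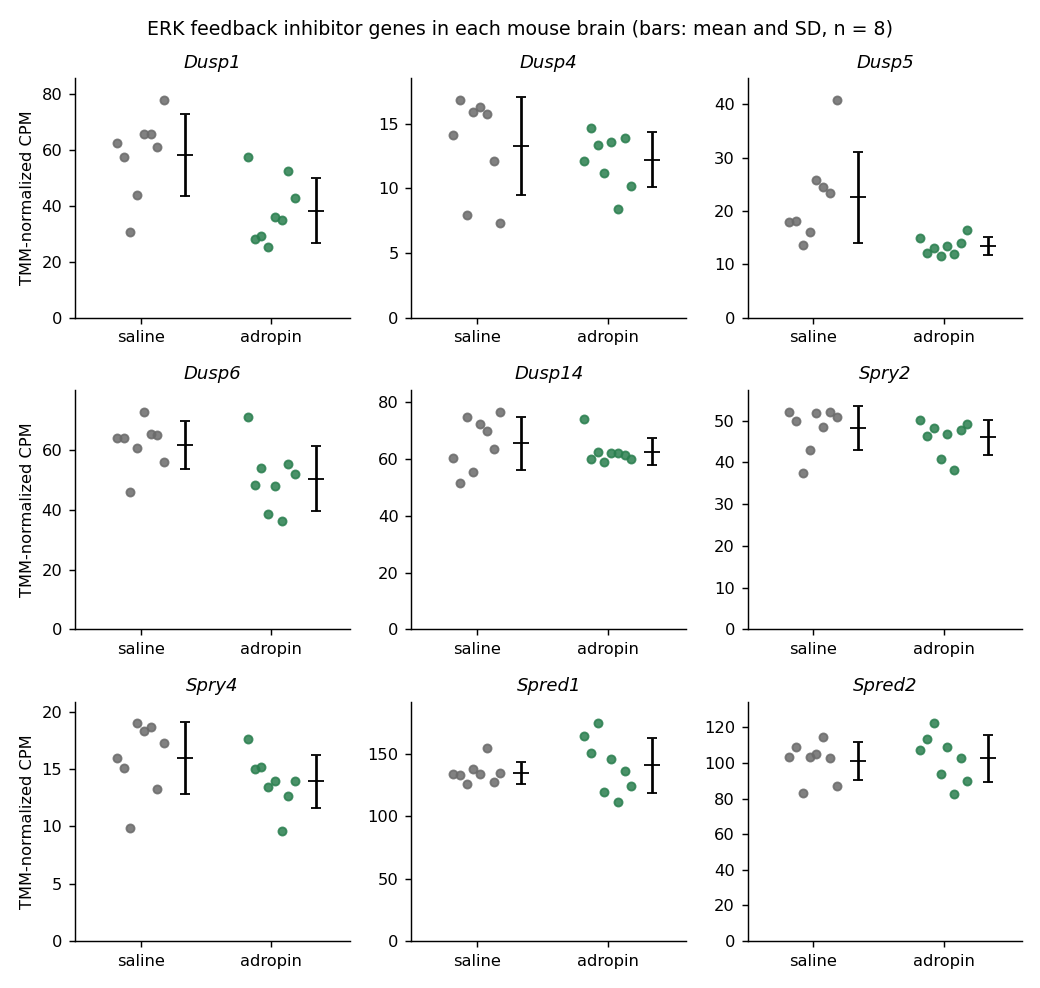
TMM-normalized CPM (vertical axes, starting at 0) of each gene in each mouse, 8 saline (grey) and 8 adropin (green), with the mean and SD as bars. In Dusp5 the treated mice sit between 11.6 and 16.4 CPM while the controls reach 40.8 CPM, and the groups of Spred1 and Spred2 overlap throughout.

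Dusp4 and Dusp14 did not pass the threshold. Dusp4 (MKP-2), a nuclear phosphatase on chromosome 8, averaged 12.2 ± 2.12 CPM in treated mice and 13.3 ± 3.79 CPM in controls. Its log2 fold change was -0.12 with a 95% interval from -0.47 to 0.23 (exact permutation p = 0.683), which leaves room for a reduction as large as that of Dusp6. Dusp4 differed from Dusp1 and Dusp5 in mouse 8_3, which held the lowest saline value, 7.30 CPM. Dusp14 (MKP-6), an atypical small phosphatase on chromosome 11, averaged 62.6 ± 4.77 and 65.5 ± 9.27 CPM, with a log2 fold change of -0.07 (95% interval -0.23 to 0.10, exact permutation p = 0.509).

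No Sprouty or SPRED member passed the threshold either. Sprouty proteins bind adaptors and RAF to restrain receptor tyrosine kinase signals, and SPRED proteins bring neurofibromin to the membrane, where it turns RAS off. Spry2 (chromosome 14) averaged 45.9 ± 4.23 CPM in treated mice and 48.2 ± 5.31 CPM in controls, with a 95% interval of the log2 fold change from -0.23 to 0.09 (exact permutation p = 0.416). Spry4 (chromosome 18) averaged 13.9 ± 2.30 and 15.9 ± 3.15 CPM, with a log2 fold change of -0.19 (95% interval -0.46 to 0.08, exact permutation p = 0.228). That interval leaves room for a reduction as large as that of Dusp6. Without saline mouse 5_4, the log2 fold change of Spry4 was -0.27 (exact permutation p = 0.0294), so 1 library decided which side of the threshold it took.

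Spred1 (chromosome 2) and Spred2 (chromosome 11) had the highest CPM of the members. Spred1 averaged 141 ± 22.1 CPM in treated mice and 135 ± 8.78 CPM in controls, with a 95% interval of the log2 fold change from -0.11 to 0.24 (exact permutation p = 0.575). Spred2 averaged 103 ± 13.1 and 101 ± 10.7 CPM, with an interval from -0.15 to 0.20 (exact permutation p = 0.819). These intervals exclude a 1.5-fold change in either direction, as do those of Spry2, Spry4, Dusp14 and Dusp4.

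Levels were compared between genes per kilobase of merged exon. Dusp14 was highest at 32.9 RPKM and led in all 16 mice. Spry2 (22.6 RPKM) and Spred2 (22.1 RPKM) could not be ordered, since Spry2 was above Spred2 in 9 of 16 mice. Spred1 (20.3 RPKM) followed, then Dusp6 (17.9 RPKM) and Dusp1 (14.6 RPKM). The lowest were Dusp5 (7.28 RPKM), Dusp4 (4.65 RPKM) and Spry4 (3.14 RPKM). The middle of this order depends on the transcript counted. With the longest transcript as length, Dusp1 (20.9 RPKM) came out above Dusp6 (20.03 RPKM), and Spred1 (22.94 RPKM) came level with Spred2 (22.90 RPKM) and Spry2 (22.55 RPKM). The SDs over mice were 3.74 RPKM for Dusp14 and 4.95 RPKM for Dusp1, the widest of the members.

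The members were then compared over the 16 mice, with group means subtracted so that the difference between groups could not set the correlation. Over the 36 pairs the median Pearson r was 0.469, from -0.510 to 0.856, and 33 pairs were positive. Of these, 15 had a permutation p below 0.05 after Benjamini-Hochberg adjustment over 54 relations. The median was 0.645 among the 6 pairs of Sprouty and SPRED genes, 0.307 among the 10 pairs of phosphatases and 0.443 between families. When the 2 mice farthest from the median of the first gene were left out of each pair, these medians were 0.241, 0.453 and 0.275, so the order of the families did not hold. All points share 16 libraries, with the range of depth given above.

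Dusp1 and Dusp5 varied together within groups (r = 0.732, n = 16, permutation p = 0.000520, adjusted 0.00562; Spearman's rho = 0.741, permutation p = 0.000420). The r was 0.619 once the pair farthest from the median of Dusp1 was left out, which were the lowest mice of the groups, 3_3 and 5_4. Dusp6 varied with Spry2 (r = 0.822, n = 16, permutation p = 0.000170, adjusted 0.00297; rho = 0.685, permutation p = 0.00427), with r = 0.652 without 2 mice. Spred1 varied with Spred2 (r = 0.810, n = 16, permutation p = 0.000220, adjusted 0.00297; rho = 0.803, permutation p = 0.00106), with r = 0.675 without 2 mice. Dusp4 stood with Spred2 (r = 0.856, n = 16, permutation p = 5e-05, adjusted 0.00135; rho = 0.732, permutation p = 0.000860), and not with Dusp5 (r = -0.203, permutation p = 0.554). At least 1 pair rested on 2 mice. Spry2 and Spry4 had r = 0.641 (n = 16, permutation p = 0.0173, adjusted 0.0492; rho = 0.356, permutation p = 0.192), which became -0.104 without mice 4_3 and 5_4, the lowest in Spry2 and the smallest libraries of their groups.

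**Figure D3:**
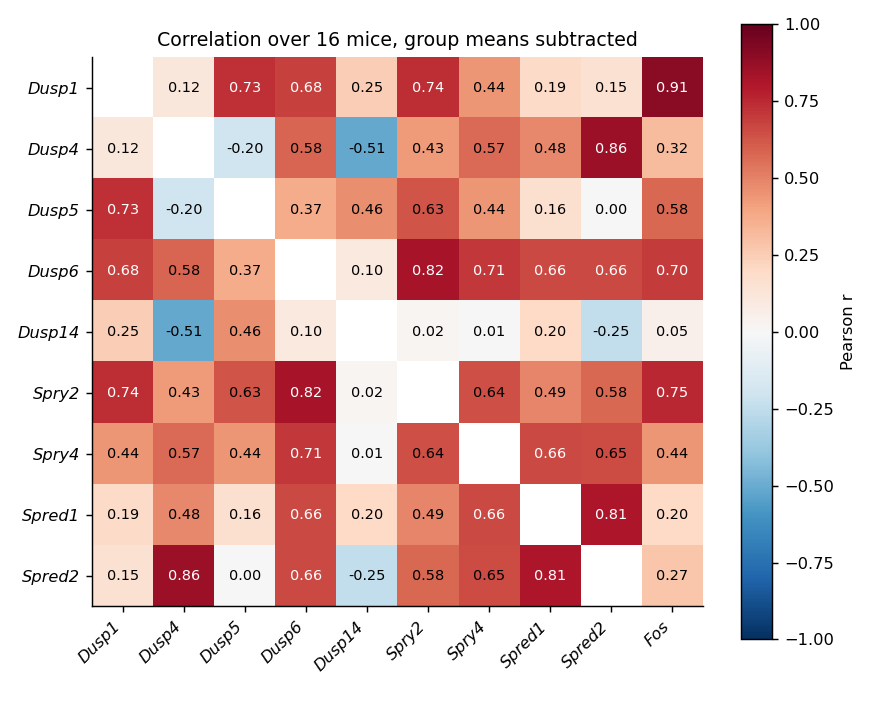
Pearson r of log2 TMM-normalized CPM between genes over 16 mice after subtracting group means, with Fos in the last column. The Sprouty and SPRED genes are positive with each other (0.49 to 0.81), Dusp1 is closest to Fos (0.91), and Dusp14 is near 0 with several genes.

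Fos, an immediate early gene and a common marker of neuronal activity, was taken as a reference. Dusp1 had r = 0.906 with Fos (n = 16, permutation p = 5e-05, adjusted 0.00135; rho = 0.903, permutation p = 4e-05), and 0.813 without 2 mice. Spry2 had r = 0.754 with Fos (n = 16, permutation p = 0.00174, adjusted 0.0134; rho = 0.674, permutation p = 0.00553), Dusp6 had r = 0.700 (n = 16, permutation p = 0.00498, adjusted 0.0269; rho = 0.653, permutation p = 0.0120) and Dusp5 had r = 0.578 (n = 16, permutation p = 0.0165, adjusted 0.0492; rho = 0.547, permutation p = 0.0198). Without 2 mice these were 0.664, 0.629 and 0.536. The genes most like Dusp1 among 11610 genes of at least 5 CPM were Arc (r = 0.961), Ccn1 (r = 0.922) and Fos. Those most like Dusp5 were Plekhh3 (r = 0.903), Coq10b (r = 0.875) and Zfp395 (r = 0.874), and those most like Dusp6 were Adrb1 (r = 0.945), Gart (r = 0.931) and Vgll4 (r = 0.931). Fkbp5, a glucocorticoid-induced gene, was not correlated with any member at an adjusted p below 0.05. Its r was 0.570 with Dusp4 (n = 16, permutation p = 0.0445, adjusted 0.104; rho = 0.377, permutation p = 0.143), which became 0.0285 without mice 5_4 and 8_3. With Dusp5 it was -0.592 (n = 16, permutation p = 0.0715; rho = -0.271, permutation p = 0.307), which became -0.167 without the same mice. With Dusp1 it was -0.110 (n = 16, permutation p = 0.669; rho = 0.0147, permutation p = 0.962).

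Other genes of the pathway were counted in the same edgeR fit, at an unadjusted p below 0.05, and the p values printed with them are from the two-sided exact permutation test. Igf1r, Fosl2 and Per1 passed in edgeR but had exact p values of 0.0524, 0.0730 and 0.0633. Of the 91 pathway genes tested besides the members, 2 were reduced, beside 2.13% of all genes, and 4 were increased, beside 1.86%. Their median log2 fold change was 0.03. None of the 16 ERK cascade kinases and scaffolds passed. Mapk3, which encodes ERK1, had a log2 fold change of -0.0045 (exact p = 0.946). The smallest edgeR p values there were those of the ERK-activated kinase Rps6ka2 (0.21, exact p = 0.0755) and the scaffold Lamtor3 (-0.11, p = 0.0866). None of the 13 genes of RAS, its exchange factors and its GTPase-activating proteins passed, the nearest being Rasgrf2 (0.35, exact p = 0.101) and Nf1 (0.11, p = 0.178). The adaptor gene Shc3 was increased (0.47, exact p = 0.0328). Among receptors Fgfr1 was reduced (-0.20, exact p = 0.0281) and Igf1r increased (0.29, p = 0.0524). In the p38 and JNK cascade, Map2k3, a kinase that activates p38, was reduced (-0.26, exact p = 0.0134), while Mapk10, which encodes JNK3, was increased (0.14, p = 0.0314).

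The remaining phosphatases gave few calls. Dusp2, a nuclear phosphatase of the class of Dusp1, Dusp4 and Dusp5, was increased (log2 fold change 0.37, exact p = 0.0350). It held only 1.37 ± 0.304 CPM in treated mice beside 1.06 ± 0.256 CPM in controls (SD, n = 8 each). The ERK-selective Dusp7 (-0.05, exact p = 0.484) and Dusp9 (-0.02, p = 0.902) did not pass, nor did any of the 3 JNK and p38 phosphatases, of which Dusp8 (0.06, p = 0.206) had the smallest edgeR p, followed by Dusp10 (-0.04, p = 0.759). None of the 10 atypical phosphatases tested besides Dusp14 passed, the smallest edgeR p values being those of Dusp26 (-0.10, exact p = 0.159) and Dusp11 (-0.16, p = 0.262). Spry1 (-0.08, exact p = 0.294), Spry3 (0.04, p = 0.786) and Spred3 (0.03, p = 0.766) did not pass either. Of 10 further genes known as transcriptional outputs of ERK, none passed. Myc (0.19, exact p = 0.115) and Phlda1 (-0.14, p = 0.335) came nearest.

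Of 15 immediate early transcription factors and effectors, 10 were reduced and none increased, with a median log2 fold change of -0.53, beside 2.13% of all genes reduced. The list was chosen with earlier results of these mice known, so its count is not independent evidence of a direction. Fos averaged 28.5 ± 14.3 CPM in treated mice and 57.1 ± 18.2 CPM in controls (SD, n = 8 each), and was reduced with a log2 fold change of -0.997 (exact permutation p = 0.00886). The others reduced were Egr2 (-1.19), Arc (-0.74), Nr4a1 (-0.65), Junb (-0.64), Ier2 (-0.57), Egr4 (-0.55), Fosb (-0.53), Nr4a3 (-0.46) and Fosl2 (-0.35). Egr1 (-0.40, exact p = 0.0974), Npas4 (-0.51, p = 0.0611), Jun (-0.17, p = 0.266), Nr4a2 (-0.04, p = 0.951) and Egr3 (0.09, p = 0.768) did not pass. Of 10 glucocorticoid-responsive genes 3 were reduced, Cdkn1a (-0.27), Per1 (-0.26) and Errfi1 (-0.21), beside 2.13% of all genes. In this list 8 of 10 had lower means in treated mice and the median log2 fold change was -0.20. Sgk1 (-0.36), Sult1a1 (-0.26), Tsc22d3 (-0.19), Fkbp5 (-0.07), Klf9 (-0.03), Pdk4 (0.04) and Zbtb16 (0.16) did not pass. Errfi1 encodes a feedback inhibitor of the EGF receptor.

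**Figure D4:**
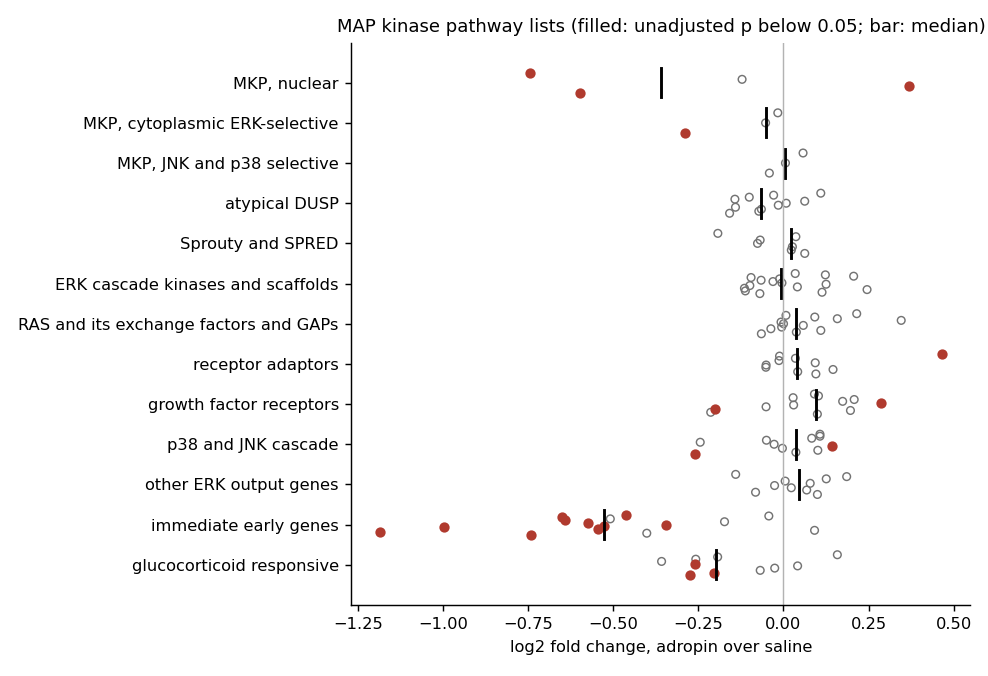
Log2 fold change, adropin over saline, of each tested gene in the lists (rows), with the list median as a black bar and genes at an unadjusted p below 0.05 filled. MKP stands for MAP kinase phosphatase, members of the described set are included in their lists, and the immediate early genes have the lowest median, -0.53.

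Markers of cell types and regions were counted in the same edgeR fit, where 2.13% of all genes were reduced and 1.86% increased. No neuron, astrocyte, oligodendrocyte or endothelial marker was past the threshold, while 1 of 6 microglial markers was increased and 1 of 5 mural cell markers was reduced. All 6 oligodendrocyte markers had log2 fold changes below 0, and their sum had a median of 4175 CPM in treated mice and 5356 CPM in controls. The 6 hippocampal markers tested were also below 0, and none passed. Of 2 cerebellar markers tested 1 was reduced. The summed cerebellar markers had medians of 28.1 CPM in treated mice and 32.4 CPM in controls, where mouse 8_3 reached 466 CPM. Of 5 blood markers, hemoglobin genes among them, 4 were below 0 and none passed, and their sum had a median of 225 CPM in treated mice and 376 CPM in controls. The summed neuron markers ran from 6484 to 8033 CPM in treated mice and from 6430 to 7369 CPM in controls. Of 7 cortical markers tested 2 were increased, with a sum from 643 to 1146 CPM in treated mice and from 559 to 858 CPM in controls. Of 6 thalamic markers 3 were reduced, with a sum from 60.2 to 90.1 CPM in treated mice and from 64.9 to 102 CPM in controls. The medians of that sum were 70.3 CPM in treated mice and 69.7 CPM in controls. No marker of these lists was at 0 in every mouse. Whether the piece of tissue taken bears on the differences of Dusp1, Dusp5 and Dusp6 was not tested.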

How the data were processed

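RNA was extracted from the brains of 8 adropin-treated and 8 saline-treated mice, and libraries were sequenced as paired-end reads after poly-A selection. Reads were mapped by the authors with STAR to the mouse assembly of Ensembl release 76 (GRCm38). The deposited count of a gene is the number of unambiguous reads that featureCounts assigned to it, with no normalization. A second deposited table holds CPM, which are these counts over the library total, and was used only to check the first. Of 40757 entries, 276 repeats of the same gene were dropped. The study's filter was followed, with over 1 CPM required in 7 mice or more, and 355 ribosomal RNA genes were left out. The 14949 genes left were compared with edgeR 4.0.16 (TMM factors, quasi-likelihood test, R 4.3.3), two-sided, with Benjamini-Hochberg adjustment over all of them. Single genes were also compared by exact permutation of the mice, and correlations by 100000 permutations within groups. The lengths and coordinates come from the GENCODE annotation of GRCm38 and the promoters from RefSeq.

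The members, lists and tests were chosen with earlier results of these data known. Named genes are the members, the genes most like them, the genes of each list at an unadjusted p below 0.05 or else with the 2 smallest p values, genes whose exons overlap a member, Fos and Fkbp5. Mapk3, Dusp7, Dusp9, the other Sprouty and SPRED genes and the immediate early and glucocorticoid-responsive genes that missed the threshold were named after their values were seen. The alternatives were limma-voom (limma 3.58.1), DESeq2 1.42.0, its size factors, library size only, no filter, a minimum of 10 counts in each mouse, 1 surrogate variable (sva 3.50.0), label numbers as blocks and leaving out each mouse. No pair of mice of a group had counts alike within sampling noise. Nothing in the sources says that a mouse gave more than 1 library, and the p-values measure the spread between these mice.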

Additional observations from a re-analysis of the deposited data

Results flagged for a closer look

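In 3 of the 18 groups formed by 9 genes and 2 treatments, the highest mouse lay far from the rest by Dixon's test at the 95% level. Chance gives this in about 1 in 20 groups, or 0.9 of 18. Dusp5 was 40.8 CPM in saline mouse 8_3, with the next saline mouse at 25.9 CPM. Dusp14 was 74.0 CPM in adropin mouse 1_3, with the next treated mouse at 62.3 CPM. Spred1 was 154 CPM in saline mouse 7_1, with the next control at 138 CPM. Mouse 8_3 also had the highest choroid plexus markers and mouse 1_3 the largest library. Neither was tested as a cause.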

How the results depend on the processing

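Dusp1, Dusp5 and Dusp6 were reduced at an unadjusted p below 0.05 in limma-voom, DESeq2, both other scalings and both other filters. With 1 surrogate variable 6 members were reduced, Dusp4 (-0.28), Spry2 (-0.13) and Spry4 (-0.31) joining them, beside 2.41% of all genes. Leaving out 1 mouse gave 2 to 4 reduced members (beside 1.28% to 3.51% of all genes), 0 to 2 past the 1.5-fold limit as well (beside 0.227% to 0.415%), and 49 to 107 genes past both limits beside 63. The 0 came without saline mouse 8_3. Dusp5 alone passed both limits without adropin mouse 2_1, 2_4, 3_3, 4_1 or 4_3 or saline mouse 6_2 or 7_1. The 107 came without adropin mouse 4_3 and 96 without saline mouse 5_3. Without a filter 1353 genes passed both limits, since genes of few counts entered.

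Fitting the first label number as a replicate block left 0 members reduced and 0 past the fold limit, beside 1.30% and 0.401% of all genes. That fit compares groups only among 8 mice that share 3 numbers. Dusp1 was -0.48, Dusp5 -0.41 and Dusp6 -0.20, none with an unadjusted p below 0.05. With the second number as a replicate block, 2 members were reduced beside 1.83% of all genes, Dusp1 (-0.60) and Dusp5 (-0.70), and Dusp6 (-0.26) was not. Mice with the same first number had correlations of deviations of 0.10, -0.14 and -0.08, and those with the same second number 0.22, -0.27 and -0.49, so the numbers were not shown to pair the mice.

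Small values changed sign. Spry2 was 0.0019 under the first block, Spred1 was -0.0162 with a surrogate variable, and Spred2 was 0.0 with library size only, -0.0691 with a surrogate variable, and -0.0132 to 0.0707 when 1 mouse was left out, with -0.0107 without adropin mouse 2_4, -0.0132 without saline mouse 5_4 and -0.005 without saline mouse 8_3. Dusp14 with Fos had r = -0.0299 with library size only and 0.0491 as reported. The cause was not tested. The median r over member pairs ran from 0.394 to 0.605 when 1 mouse was left out. The list counts, tried under these settings after the data were seen, moved for immediate early genes to 1 under the first block. Reduced glucocorticoid-responsive genes numbered 0 under that block and 6 without saline mouse 6_1. Other reduced pathway genes numbered 5 with a surrogate variable, 1 under the first block and 1 without saline mouse 5_3. Which genes depth limits was not tested.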
